A study of Mus musculus with 2 samples.

Results

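The comparison was between 2 T-cell subtypes of mouse blood, the cells that the study's authors labelled MemCD8T (memory CD8+ T-cells) and EffCD4T (effector CD4+ T-cells). The subtype labels of single cells chose the members: 106 cells carried the label MemCD8T and 45 the label EffCD4T, of 978 labelled cells and 1055 cells in the count table. Counts were summed per mouse and subtype, and each mouse with at least 2 cells of both subtypes gave a pair, which left 9 of 11 mice and 137 cells (92 MemCD8T and 45 EffCD4T). The 2 other mice held 5 and 9 MemCD8T cells and no EffCD4T cell.

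All animals were male wild-type C57BL/6J mice with no treatment, so the groups differ only in the label of the cell. RNA and DNA methylation were read from the same sorted nucleated blood cells by scM&T-seq, and only the RNA was used here. The paired mice were in the age groups of 10 weeks (1 mouse), 36 weeks (2 mice), 77 weeks (3 mice) and 101 weeks (3 mice). The authors named the subtypes from clusters and a reference atlas of the same RNA, so a test over mice shows whether a difference repeated between animals and not whether the subtypes are distinct.

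CD8+ T-cells carry the coreceptor made of the Cd8a and Cd8b1 products and read peptides on MHC class I, and memory CD8+ T-cells persist after a first encounter with antigen. CD4+ T-cells carry the Cd4 coreceptor, read peptides on MHC class II and help other cells, in part through the CD40 ligand. Invariant natural killer T-cells are a further T-cell kind whose alpha chain is almost always Trav11 joined to Traj18, with beta chains mostly of the Trbv13, Trbv29 and Trbv1 genes.

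The labels were checked first against the receptor genes that the cells used. The 4 germline segments below are shown because their reads set the EffCD4T cells apart, and they were singled out after their values were seen. The sequences are from the GENCODE vM21 transcripts on GRCm38. In the 3 variable segments (last 60 bases, 5′ to 3′) the capitals run from the codon of the conserved cysteine to the 3′ end, where the segment is joined. In Traj18 (all 66 bases) they mark the conserved joining motif, which opens with TTTGG. All 4 lie on the forward strand.
Trav11, chr14:53519800-53519859: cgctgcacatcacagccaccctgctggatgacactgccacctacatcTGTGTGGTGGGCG
Traj18, chr14:54200777-54200842: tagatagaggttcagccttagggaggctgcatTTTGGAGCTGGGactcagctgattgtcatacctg
Trbv13-2, chr6:41121773-41121832: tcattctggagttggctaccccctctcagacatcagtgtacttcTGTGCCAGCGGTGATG
Trbv29, chr6:41271822-41271881: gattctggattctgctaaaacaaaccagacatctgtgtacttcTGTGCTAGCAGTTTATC

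Trav11 has a near copy, Trav11d, whose transcript of 342 bases equals the first 342 of the 343 bases of Trav11. Reads could not be split safely between the copies, and their counts were added. Of the 45 EffCD4T cells, 38 (84.4%, 95% Wilson interval 71.2 to 92.3) held counts on Trav11 or Trav11d, with 2 to 714 counts and a median of 233. Traj18 was read in 37 EffCD4T cells (82.2%), and 35 cells held both segments. Of the 106 MemCD8T cells, 1 (0.943%, 0.167 to 5.15) held Trav11 or Trav11d and 9 (8.49%) held Traj18. The share for Trav11 or Trav11d was 1.18% of 85 naive CD4+ T-cells (label NveCD4T), 0 of 72 naive CD8+ T-cells (Wilson interval up to 5.07%), 0 of 13 regulatory T-cells (up to 22.8%), 0 of 25 NK cells (up to 13.3%) and 0 of 600 B-cells (up to 0.636%). Of the 8 cells labelled MemCD4T, 2 (25%, 7.15 to 59.1) held Trav11 or Trav11d and 2 Traj18, an interval below that of the EffCD4T cells but set by few cells. Intervals cover counting error only, and the cells come from few mice.

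The share of EffCD4T cells with Trav11 or Trav11d differed between mice. It was lowest in mouse 1 (33.3%, 1 of 3 cells), had a median of 90.9% over the 9 mice and was 100% in 4 mice. In the mice of 101 weeks 6 of 9 EffCD4T cells held it, and in the younger mice 32 of 36, with all cells of the oldest mice on 1 sequencing lane. Summed per mouse and over both copies, Trav11 and Trav11d lay between 152 and 805 CPM (counts scaled to the normalised size of each sum) in EffCD4T, with a median of 578, and between 0 and 19.4 in MemCD8T, with a median of 0. The groups did not overlap, as for 9 of all 4665 genes tested in this direction (0.193%). Since the segments were chosen for these values and were found in over 25% of cells, the filter of the test, in EffCD4T alone, this is a description with no test.

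The beta chains of the EffCD4T cells were also few. The variable gene with the most counts (at least 10) was Trbv13-2 in 18 of 45 EffCD4T cells (40.0%), Trbv13-1 in 9, Trbv29 in 8 and Trbv1 in 5. Genes of the Trbv13 group, Trbv29 or Trbv1 led 40 EffCD4T cells (88.9%), against 30 of 101 MemCD8T cells (29.7%), 18 of 67 naive CD8+ T-cells (26.9%) and 16 of 81 naive CD4+ T-cells (19.8%). The 45 EffCD4T cells spread over 8 leading genes and the 101 MemCD8T cells over 19, numbers that rise with the count of cells. Within MemCD8T, Trbv19 led 25 cells (24.8%), of which 17 were among the 25 cells of mouse 2.

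**Figure D1:**
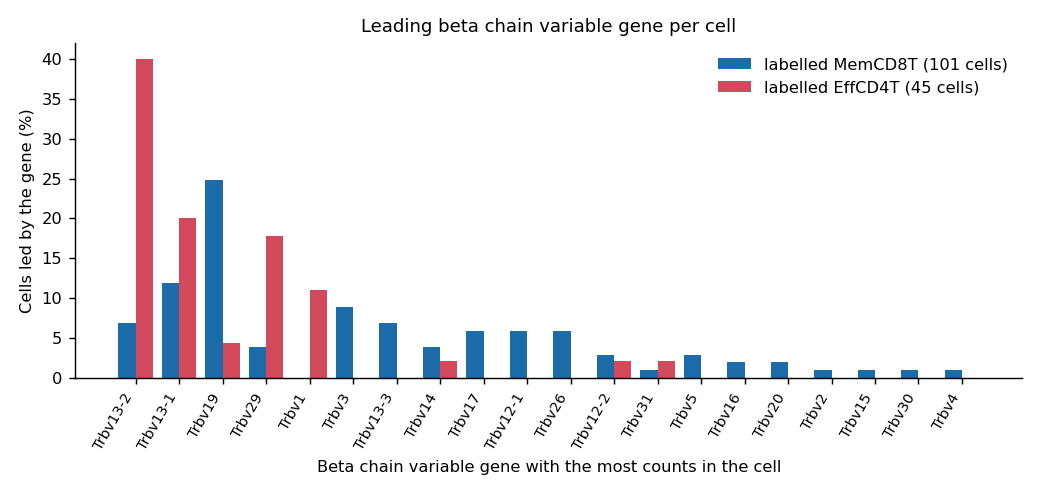
Share of cells (vertical axis, % of cells with a leading gene) whose most counted beta chain variable gene is the one named on the horizontal axis, for 101 MemCD8T cells (blue) and 45 EffCD4T cells (red). Trbv13-2 leads 40.0% of the EffCD4T cells and 6.93% of the MemCD8T cells, while Trbv19 leads 24.8% of the MemCD8T cells.

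The coreceptors fitted the label of the MemCD8T cells better than that of the EffCD4T cells. In MemCD8T, Cd8b1 was read in 87.7% and Cd8a in 67.9% of cells, and Cd4 in 1 of 106 cells. In EffCD4T, Cd4 was read in 8 of 45 cells (17.8%, 9.29 to 31.3), against 47.1% (36.8 to 57.6) of naive CD4+ T-cells and 4 of 8 cells labelled MemCD4T. Cd40lg was read in 62.2% of EffCD4T cells, Cd8a or Cd8b1 in 2 cells, and neither Cd4 nor Cd8 in 35 of 45. Foxp3, the factor of regulatory T-cells, was at 0 in both subtypes. Among EffCD4T cells with at least 10 Trav11 counts, 4 of 37 held Cd4, and among the 8 others 4 did. The label EffCD4T is kept below as a name only, since most of its cells carried the Trav11 and Traj18 segments and had no Cd4 count.

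**Figure D2:**
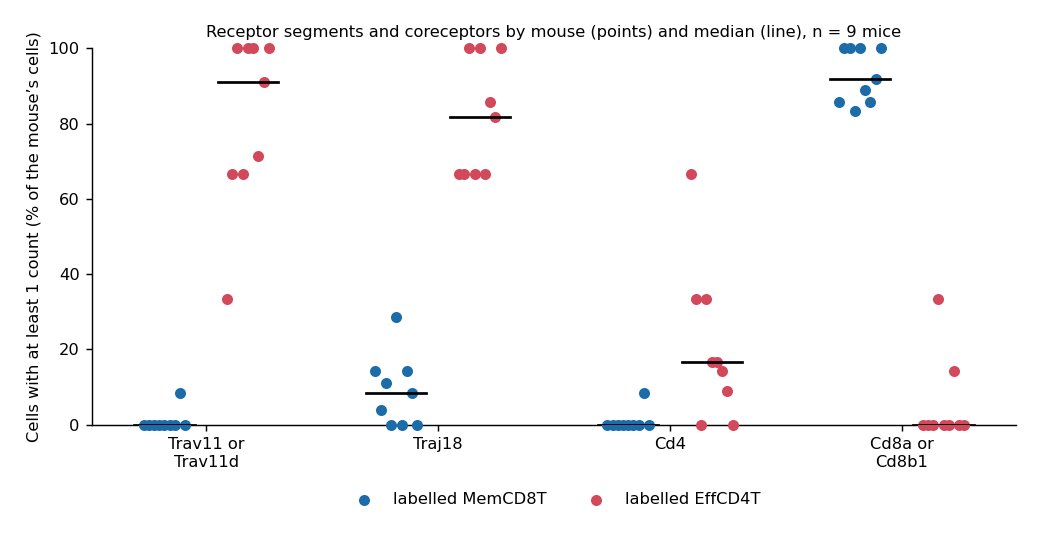
Share of the cells of each mouse (vertical axis, %) with at least 1 count on the genes named on the horizontal axis, for MemCD8T (blue) and EffCD4T (red). Points are the 9 mice and lines their medians. Trav11 or Trav11d was found in 33.3% to 100% of the EffCD4T cells of a mouse and in at most 8.33% of the MemCD8T cells.

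The list of markers of NKT and MAIT cells, with 2 genes, was higher in EffCD4T. Klrb1c, which encodes the NK1.1 antigen of this strain, was read in 55.6% of EffCD4T and 16% of MemCD8T cells, and Zbtb16, the transcription factor PLZF, in 6 of 45 and 3 of 106 cells. Their summed level was 394 ± 324 CPM (SD, n = 9 mice) in EffCD4T against 52.5 ± 49.1 in MemCD8T. It was higher in EffCD4T in 9 of 9 mice (exact sign-flip permutation test over mice, in both directions, p = 0.00391, the smallest possible; adjusted p = 0.0235 over 18 marker lists). Most of the sum was Klrb1c, at 349 ± 240 CPM in EffCD4T and 52.4 ± 49.1 in MemCD8T, which by itself did not pass in edgeR (log2 difference -3.65, SE 1.46, adjusted p = 0.31). Zbtb16 was too rare to test, and mouse 24 held 352 CPM of it in EffCD4T, against at most 40 in any other mouse. Klrb1c was also read in 23 of 37 EffCD4T cells with at least 10 Trav11 counts and in 2 of the 8 others. Trbv13-2 went the other way, with counts in 16 of the 37 and in 6 of the 8. Ncr1, a defining gene of NK cells, was at 0 in EffCD4T.

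Of the other marker lists, the 9 effector CD4 markers summed to 3666 ± 1840 CPM in EffCD4T and 2367 ± 974 in MemCD8T and did not pass (exact permutation p = 0.0586, adjusted p = 0.117). The sum of the 8 memory CD8 markers was higher in MemCD8T in 8 of 9 mice (15300 ± 1810 against 10070 ± 2780 CPM, exact permutation adjusted p = 0.0281). Its largest member was Ccl5, with means of 9240 against 4500 CPM. By their means Eomes, Ly6c2, Gzmm and Klrd1 were also higher in MemCD8T. Il2rb (496 against 1210 CPM), Cxcr3 (347 against 510) and Nkg7 (2570 against 2630) went the other way. B-cell markers were at 43.1 ± 59.9 CPM in MemCD8T (0.602 to 186) and 0.647 ± 0.564 in EffCD4T (exact permutation adjusted p = 0.0602). Their part in the results was not tested. In all, 8 of 18 lists passed an adjusted p of 0.1. Besides those above they were the CD8 and naive lists, higher in MemCD8T (exact permutation adjusted p = 0.0281 and 0.0235), and the CD4 and T-cell lists, higher in EffCD4T (0.0235 and 0.0351), beside dendritic markers at 3.61 ± 4.49 CPM in MemCD8T and 0 in EffCD4T (0.0702). Regulatory T, gamma-delta T, plasma, NK, monocyte, neutrophil, basophil and platelet markers did not pass (0.148 to 1). By the share of cells with a count in place of CPM, 6 lists passed. The calls of the naive list (exact permutation adjusted p = 0.473), and of the T-cell and memory CD8 lists, read in 100% of cells of both subtypes, were then lost, and the monocyte list passed, at 70.1 ± 14.3% of MemCD8T and 42.0 ± 30.7% of EffCD4T cells (exact permutation adjusted p = 0.0936). Its member Csf1r was read in 47.2% and 37.8% of cells at means of only 1.59 and 1.17 CPM. MemCD8T cells also held more counts per cell, which bears on such shares. Haemoglobin and Alas2 transcripts ranged from 0.201 to 205900 CPM in MemCD8T and from 0 to 40190 in EffCD4T, with the highest value in mouse 24 (exact permutation adjusted p = 0.418).

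Depth also differed between the subtypes. Sums held between 1125969 and 14990184 counts, and single cells between 157578 and 1066495. MemCD8T cells had 563900 ± 97400 counts per cell and EffCD4T cells 450800 ± 85800 (mean of the mouse means ± SD, n = 9; exact permutation p = 0.00781). With 150000 counts drawn from each cell, 2685 ± 379 genes were detected in MemCD8T and 2492 ± 328 in EffCD4T, higher in MemCD8T in 8 of 9 mice by 193 ± 50.5 (SE; exact permutation p = 0.00781). Mean genes detected as a covariate in the fit left 0 genes past the threshold in edgeR (283 at an unadjusted p under 0.05). The 105 genes called without it had a median absolute log2 difference of 2.82 with the covariate and 2.49 without, and a median SE of 0.89 and 0.52.

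Across all genes, 105 of 4665 tested (2.25%) passed an adjusted p of 0.1 in a paired edgeR quasi-likelihood test, in which each mouse was a block. MemCD8T was higher in 74 (1.59% of genes tested) and lower in 31 (0.665%). Of the 74, 22 encoded ribosomal proteins, 17 were pseudogenes, 1 was mitochondrial and 32 were other protein-coding genes, and of the 31, 18 were other protein-coding genes and 3 receptor genes. The median log2 difference over all tested genes was 0.39 in favour of MemCD8T. DESeq2 size factors moved this median by -0.21 and gave 99 genes (2.12%), 48 higher (1.03%) and 51 lower (1.09%), so the share of genes called in each direction depends on the scaling. DESeq2 called 481 higher (10.3%) and 298 lower (6.39%). Genes entered the test when read in at least 25% of the cells of either subtype. Of the 105, 50 did so only through the subtype in which they were higher (35 higher and 15 lower in MemCD8T), so a difference in detection was built into their choice, and 14 of these 50 passed with no filter. Genes said below to be called or to pass did so in the edgeR test unless another tool is named. The number fell to 60, 64 and 55 without mouse 1, 2 or 3, to 63, 59 and 66 without mouse 21, 22 or 23, and rose to 132 without mouse 24. Within sequencing lanes it was 0 with the 4 mice of lane 1 and 2 with the 4 mice of lane 2.

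The coreceptor genes separated the subtypes as the label of MemCD8T says. Cd8b1 (ENSMUSG00000053044, chr6:71322788-71337494 of GRCm38, forward strand) ranged from 245 to 1870 CPM in MemCD8T with a median of 990, and from 0 to 206 in EffCD4T with a median of 0. The groups did not overlap, as for 17 of all genes tested in this direction (0.364%; mean 1040 ± 552 CPM against 24 ± 68.2, edgeR adjusted p = 0.0157), and the EffCD4T counts came from mice 14 and 22, with 1 such cell each. Cd8a ranged from 110 to 1030 CPM against 0 to 836, higher in MemCD8T in 8 of 9 mice (edgeR adjusted p = 0.0783). Both genes passed the detection filter through MemCD8T alone, and with no filter their adjusted p was 0.016 (Cd8b1) and 0.11 (Cd8a) in edgeR. The lincRNAs Gm44174 and Gm44175, which lie between Cd8b1 and Cd8a and overlap on opposite strands, were also called higher, though not with no filter (edgeR adjusted p = 0.136 and 0.254), and without strand in the libraries the reads of the pair cannot be told apart. Cd40lg, the ligand by which T-cells help B-cells, had a median of 314 CPM in EffCD4T (0 to 922) and 0 in MemCD8T (0 to 0.250) with an edgeR adjusted p of 0.00947. It passed the filter through EffCD4T alone (edgeR adjusted p = 0.016 with no filter). Mouse 2 alone had no Cd40lg count in EffCD4T. Of the 9 tested members of the list of coreceptors and lineage factors, these were the 3 that passed, 2 higher in MemCD8T and 1 lower (1.59% and 0.665% of all genes), beside a list median of -0.09 and 0.39 for all genes. Runx3, Zbtb7b and the other lineage factors did not pass or were too rare to test.

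Ccr7, the chemokine receptor that guides T-cells into lymph nodes, was read in MemCD8T and was absent from the EffCD4T counts. It had a median of 354 CPM in MemCD8T (0 to 1490, with 0 in mouse 24) and 0 counts in all 9 EffCD4T sums, which together held 19854557 counts. Against a floor of 3 counts over those sums, the summed reads of MemCD8T were 3100-fold higher (edgeR adjusted p = 0.0863). Without molecular identifiers the reads of a cell are not independent. This ratio, and those against the same floor below, are therefore not lower bounds on the level. Ccr7 was read in 46.2% of MemCD8T cells and passed the detection filter through MemCD8T alone, as did Cxcr4 below. With no filter the edgeR adjusted p was 0.0265 for Ccr7 and 0.541 for Cxcr4. No cell of 45 gave a count for Ccr7, whether or not it held Trav11. Cxcr4, the receptor for a chemokine of bone marrow stroma, was low in both subtypes, with 0 to 39.7 CPM in MemCD8T and 0 to 2.34 in EffCD4T (edgeR adjusted p = 0.0622). Of 6 tested chemokine and S1P receptors, Ccr7 and Cxcr4 were called higher in edgeR and 0 lower (1.59% and 0.665% of all genes), while DESeq2 called 2 higher and 3 lower (10.3% and 6.39%), Cxcr4 not among them (DESeq2 adjusted p = 0.143). With DESeq2 size factors in edgeR the call of Ccr7 was lost (adjusted p = 0.123). Cxcr6, a receptor of tissue-resident T-cells, had a median of 3000 CPM in EffCD4T (798 to 6240) and 367 in MemCD8T (0 to 971), higher in EffCD4T in 9 of 9 mice, and passed in DESeq2 (adjusted p = 0.00398) but not in edgeR (log2 difference -2.78, SE 0.95, adjusted p = 0.217).

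**Figure D3:**
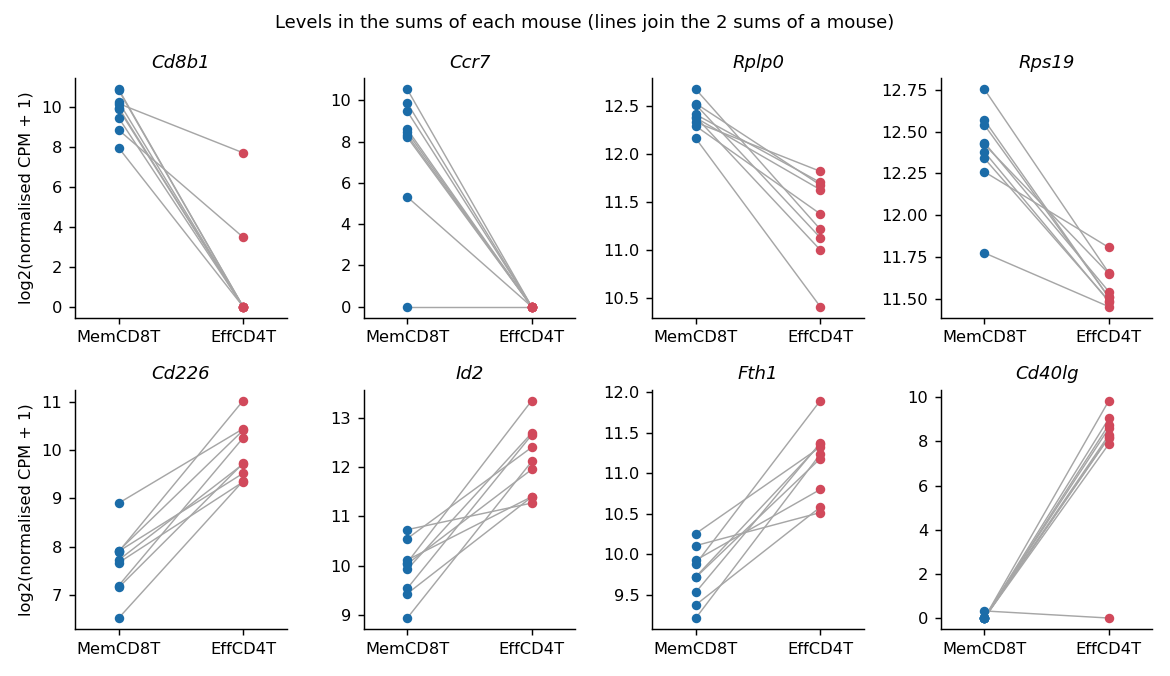
Levels of 8 genes in the summed counts of each mouse, as log2(normalised CPM + 1) on the vertical axes, with lines joining both sums of a mouse (MemCD8T blue, EffCD4T red, n = 9 mice). Axes do not share a range. Cd8b1, Rplp0 and Rps19 are higher in MemCD8T in 9 of 9 mice, Ccr7 is at 0 in all EffCD4T sums and in the MemCD8T sum of mouse 24, Cd226, Id2 and Fth1 are lower in 9 of 9, and Cd40lg is at 0 in the EffCD4T cells of mouse 2.

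Other genes high in MemCD8T were close to 0 in EffCD4T. The first 4 below passed the detection filter through MemCD8T alone, and also passed with no filter (edgeR adjusted p from 0.016 to 0.0588). Nsg2 ranged from 0.724 to 236 CPM in MemCD8T (median 107) and from 0 to 0.352 in EffCD4T (edgeR adjusted p = 0.00171). Dapl1 had a median of 125 CPM against 0, with 1 of 45 EffCD4T cells holding counts (edgeR adjusted p = 0.00234). Fcgrt, the neonatal Fc receptor, had a median of 134 CPM (0 to 286) against 0 to 0.584 (edgeR adjusted p = 0.00887). N4bp2 had a median of 77.6 CPM against at most 0.369 (edgeR adjusted p = 0.00171). Of these 4, Fcgrt passed without each mouse in turn, while Nsg2, Dapl1 and N4bp2 did not. The fold changes of the 4 genes depend on the prior count of the fit and are not given. Mouse 24, with 3 cells of each subtype, had no count of Dapl1 or Fcgrt and 0.724 CPM of Nsg2 in MemCD8T, apart from the other 8 mice. Ms4a4c was present in both subtypes, at 142 to 885 CPM in MemCD8T and 10.7 to 141 in EffCD4T, and the groups did not overlap (log2 difference 3.71, SE 0.59, edgeR adjusted p = 0.0148).

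Ribosomal protein genes made up 22 of the 74 genes higher in MemCD8T. Of 82 tested, 22 (26.8%) were called higher and 0 lower, against 1.59% and 0.665% of all genes tested, and 1 member had a log2 difference below 0. Their median log2 difference was 0.57, beside 0.39 for all genes. With DESeq2 size factors 12 were called higher and 0 lower, against 1.03% and 1.09% of all genes tested, with a median of 0.35 beside 0.18. Rplp0, a protein of the ribosomal stalk, ranged from 4590 to 6550 CPM in MemCD8T (median 5360) and from 1360 to 3620 in EffCD4T (median 2660), and the groups did not overlap (log2 difference 1.08, SE 0.13, edgeR adjusted p = 0.00394). Rps19, a protein of the small subunit, was at 5430 ± 930 CPM against 3040 ± 251 (SD, n = 9; log2 difference 0.82, SE 0.09, edgeR adjusted p = 0.00171). Rpl35 had a log2 difference of 1.12 (SE 0.15, edgeR adjusted p = 0.0058) and Rps2 of 0.92 (SE 0.12, edgeR adjusted p = 0.00497). Summed over all 86 genes, ribosomal protein counts took 143600 ± 25500 CPM in MemCD8T and 97310 ± 9500 in EffCD4T, higher in MemCD8T in 9 of 9 mice (exact permutation p = 0.00391, the smallest possible). Mitochondrial counts, a sign of RNA quality, moved the same way, with 23110 ± 5340 CPM in MemCD8T and 18250 ± 3620 in EffCD4T, higher in MemCD8T in 8 of 9 mice (exact permutation p = 0.0195). Their part in the ribosomal difference was not tested. Many of these genes have processed copies, of which 6 named after Rpl or Rps genes were also called higher, so reads could be split among them.

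Among the genes lower in MemCD8T, Cd226, an activating receptor that binds nectin-like ligands, ranged from 649 to 2080 CPM in EffCD4T (median 847) and from 91.3 to 478 in MemCD8T (median 211). The groups did not overlap (log2 difference -2.33, SE 0.23, edgeR adjusted p = 0.00171). A further 2 members of the list of costimulation and checkpoints passed, both lower in MemCD8T. Cd160, a receptor for Tnfrsf14, had medians of 282 and 850 CPM in MemCD8T and EffCD4T (log2 difference -1.31, SE 0.22, edgeR adjusted p = 0.019), and Cd40lg is described above. Of 14 tested members of this list edgeR called 3 lower and 0 higher, against 0.665% and 1.59% of all genes, and DESeq2 called 4 lower and 1 higher (6.39% and 10.3%).

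In the list of T-box and effector memory factors, 2 were called lower in MemCD8T. Id2, an inhibitor of E proteins needed by innate-like and effector lymphocytes, ranged from 2470 to 10400 CPM in EffCD4T (median 4430) and from 491 to 1700 in MemCD8T (median 1050). The groups did not overlap (log2 difference -2.22, SE 0.30, edgeR adjusted p = 0.0058). Maf, a factor of helper and innate-like T-cells, had a median of 401 CPM in EffCD4T (7 to 860) and 0.573 in MemCD8T (0 to 49.5; edgeR adjusted p = 0.0389). It passed the filter through EffCD4T alone, and not with no filter (edgeR adjusted p = 0.128). Of its 12 tested members, these 2 were called lower and 0 higher in edgeR (0.665% and 1.59% of all genes), and DESeq2 called 3 lower and 4 higher (6.39% and 10.3%). Eomes, the T-box factor of memory CD8+ T-cells, was at 0.853 to 168 CPM in MemCD8T and had 0 counts in EffCD4T (682-fold against the floor of 3 counts). It passed in DESeq2 (adjusted p = 1.99e-16) but not in edgeR (adjusted p = 0.171). Eomes passed the detection filter through MemCD8T alone (37.7% of cells against 0%), so a difference in detection was built into its choice. Junb, an AP-1 subunit, was lower in MemCD8T in 9 of 9 mice (log2 difference -0.79, SE 0.12, edgeR adjusted p = 0.00947), the 1 called member of 18 early response and stress genes tested (0.665% of all genes were called lower), of which DESeq2 called 2 lower and 1 higher (6.39% and 10.3%).

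Further genes lower in MemCD8T had several roles. Fth1, the ferritin heavy chain that stores iron, ranged from 1460 to 3810 CPM in EffCD4T and from 591 to 1220 in MemCD8T (log2 difference -1.40, SE 0.18, edgeR adjusted p = 0.00497), with no overlap. Gimap4, a GTPase of lymphocytes, had medians of 1400 CPM in MemCD8T and 3520 in EffCD4T (edgeR adjusted p = 0.0058). Ccnd2, cyclin D2, had medians of 717 and 2540 (edgeR adjusted p = 0.011) and was the 1 called of 7 cell cycle genes tested (0.665% of all genes lower), of which DESeq2 called 1 lower and 1 higher (6.39% and 10.3%). Fgl2, a fibrinogen-like protein, had medians of 110 and 1310 CPM in MemCD8T and EffCD4T (edgeR adjusted p = 0.0155). Asb2, a subunit of a ubiquitin ligase, was read in 35.6% of EffCD4T cells and in 1 MemCD8T cell, and so passed the filter through EffCD4T alone (edgeR adjusted p = 0.00947, and 0.0588 with no filter). Ppp1r12a, a subunit of myosin phosphatase, had medians of 581 and 1360 CPM (edgeR adjusted p = 0.0148), and Sh3bgrl3 of 483 and 1140 (edgeR adjusted p = 0.0227). Il2ra, the alpha chain of the interleukin-2 receptor, was low in both, with a median of 17 CPM in EffCD4T and 0 in MemCD8T (edgeR adjusted p = 0.0504). It too passed the filter through EffCD4T alone, and not with no filter (edgeR adjusted p = 0.431). Trac, the constant gene of the alpha chain, had medians of 1500 and 625 CPM in EffCD4T and MemCD8T (log2 difference -1.10, SE 0.20, edgeR adjusted p = 0.0253), while Trbc2 was at -0.03 (SE 0.14, edgeR adjusted p = 0.962), and Trac was the 1 called of 6 constant genes tested in edgeR (0.665% of all genes lower), while DESeq2 called 5 lower (6.39%).

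Genes of killing are described by their levels, since a count of 0 in so short a list is near the share over all genes. Of 13 tested cytotoxic granule genes, 0 passed in edgeR (2.25% of all genes; 1 at an unadjusted p under 0.05), and DESeq2 called 2 higher and 2 lower (10.3% and 6.39% of all genes tested). Nkg7, a protein of cytotoxic granules, had medians of 2520 CPM in MemCD8T and 2650 in EffCD4T (log2 difference -0.03, SE 0.13, edgeR adjusted p = 0.974). Gzmm, granzyme M, ranged from 63.0 to 962 CPM in MemCD8T and had 0 counts in EffCD4T (3770-fold against the floor of 3 counts). It passed in DESeq2 (adjusted p = 4.16e-31) but not in edgeR (adjusted p = 0.113). Gzmb, granzyme B, ranged from 0 to 251 CPM in MemCD8T and from 0 to 2640 in EffCD4T and did not pass. Ccl5, a chemokine of memory CD8+ T-cells, had medians of 8660 and 3500 CPM (log2 difference 1.22, SE 0.28, edgeR adjusted p = 0.0802), higher in MemCD8T in 8 of 9 mice, and was the 1 called of 3 chemokines tested (1.59% of all genes higher), of which DESeq2 called 2 higher and 1 lower (10.3% and 6.39%). It did not pass with DESeq2 size factors, which left 0 chemokines called. Ccl4 was at 4.27 to 712 CPM in MemCD8T, with 0 counts in EffCD4T (1300-fold against the floor of 3 counts, edgeR adjusted p = 0.167, DESeq2 adjusted p = 5.62e-18). Ifng, interferon gamma, had a median of 614 CPM in EffCD4T (12.3 to 966) and 2.58 in MemCD8T (0 to 34.5), and passed in DESeq2 (adjusted p = 1.19e-11) but not in edgeR (adjusted p = 0.116). Gzmm and Ccl4 passed the detection filter through MemCD8T alone (44.3% and 25.5% of cells against 0%). Ifng did so through EffCD4T alone (51.1% against 4.72%). A difference in detection was therefore built into the choice of these genes. None of 5 cytokines tested passed in edgeR (2.25% of all genes; 3 at an unadjusted p under 0.05), with DESeq2 calling 1 higher and 2 lower (10.3% and 6.39%). Of 9 tested killer lectin-like receptor genes, Klra7 and the pseudogene Klra13-ps were called higher in MemCD8T and 0 lower (1.59% and 0.665% of all genes), and DESeq2 called 2 higher and 2 lower (10.3% and 6.39%). Both passed the detection filter through MemCD8T alone (30.2% and 32.1% of cells against 4.44%). With DESeq2 size factors in edgeR the call of Klra7 was lost (adjusted p = 0.108), as with no detection filter (adjusted p = 0.254). Klra13-ps passed with no filter (edgeR adjusted p = 0.0402). Both genes belong to a family of near-identical copies, so their values are uncertain.

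**Figure D4:**
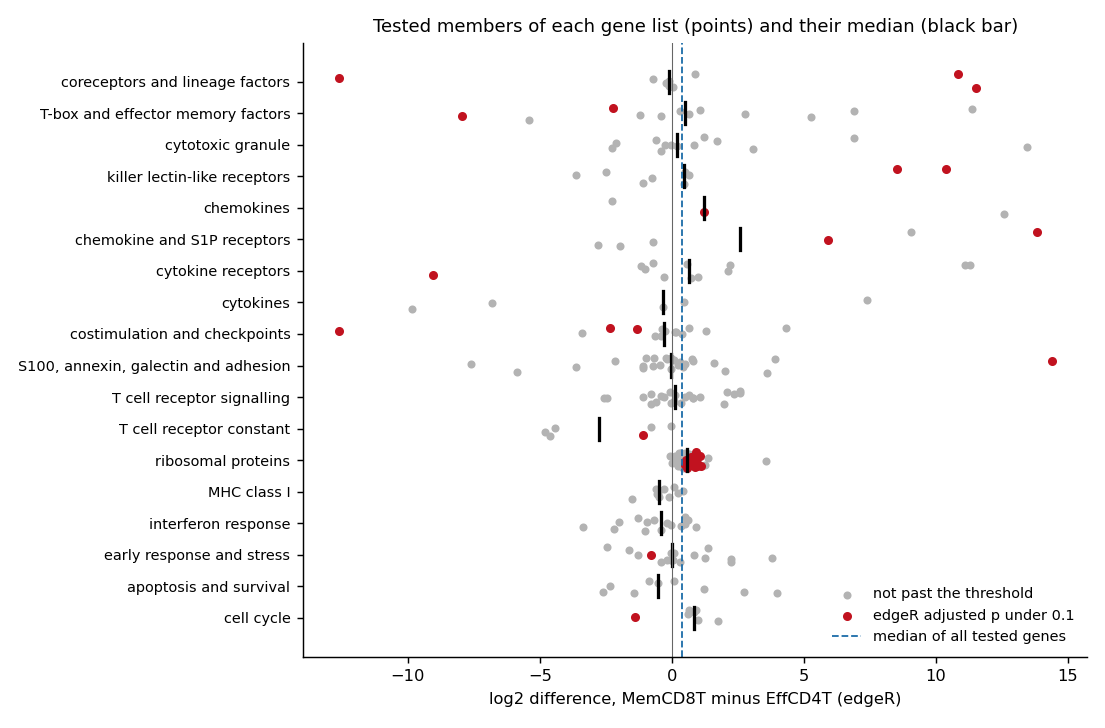
Log2 difference between MemCD8T and EffCD4T (horizontal axis, edgeR, positive where MemCD8T is higher) of the tested members of 18 gene lists. Red points passed an adjusted p of 0.1, black bars are list medians, and the dashed line is the median of all tested genes at 0.39. The ribosomal proteins hold 22 red points, all right of 0, while the costimulation list holds 3, all left of 0.

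The remaining lists held few or no calls. Of 26 S100, annexin, galectin and adhesion genes tested, edgeR called 1 higher and 0 lower (1.59% and 0.665% of all genes) and DESeq2 4 higher and 8 lower (10.3% and 6.39%). S100a4, a calcium-binding protein, was at 0 to 522 CPM in EffCD4T and 0 to 52.2 in MemCD8T, and passed in DESeq2 (adjusted p = 0.0741) but not in edgeR (adjusted p = 0.526). It passed the detection filter through EffCD4T alone (42.2% of cells against 20.8%). In the cytokine receptor list Il2ra passed of 12 tested (0.665% of all genes lower), of which DESeq2 called 3 higher and 1 lower (10.3% and 6.39%), while Il7r and Il2rb had log2 differences of 2.20 (SE 0.94) and -1.18 (SE 0.76). None of 24 T-cell receptor signalling, 11 MHC class I, 15 interferon response and 9 apoptosis and survival genes passed in edgeR (2.25% of all genes), and 5, 3, 1 and 2 of them had an unadjusted p under 0.05. DESeq2 called 4 higher and 4 lower, 0 and 4, 0 and 3, and 1 and 3 of these, in the same order, against 10.3% and 6.39% of all genes tested. With DESeq2 size factors edgeR called 1 T-cell receptor signalling gene, Cd3g (adjusted p = 0.048), and 2 MHC class I genes lower in MemCD8T, among them H2-K1 (adjusted p = 0.0696). That scaling called 1.09% of all genes tested lower.

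The gap between MemCD8T and EffCD4T was then set against the gap between naive CD8+ and naive CD4+ T-cells, to ask where they differ. Most EffCD4T cells carried the Trav11 and Traj18 segments and had no Cd4 count. A departure can therefore come from the kind of cell or from its state, and these cannot be told apart. The naive labels NveCd8T and NveCD4T gave sums in 7 and 6 of the 9 mice. Of 4831 genes tested, 47 (0.973%) passed, 34 with a more positive gap (0.704%) and 13 with a more negative one (0.269%). The count was 9 in mice with all 4 subtypes (6 and 3), and DESeq2 called 352 (196 and 156). The 4 subtypes share mice, which were a block in the fit. CPM in this comparison are normalised over the sums of all 4 subtypes and so differ slightly from those above.

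In 6 of the 8 genes named with a more negative gap, naive CD4+ T-cells were at or near 0 while EffCD4T cells were not. Nkg7 was at 970 ± 435 CPM in naive CD8+ (SD, n = 7) and 0.125 ± 0.305 in naive CD4+ T-cells (n = 6), against 2620 ± 489 in MemCD8T and 2650 ± 570 in EffCD4T (n = 9; edgeR adjusted p = 1.38e-11 for the difference of gaps). Cxcr6 was at 232 ± 253 CPM in naive CD8+ and 0 in every naive CD4+ sum, against 425 ± 303 in MemCD8T and 2790 ± 1640 in EffCD4T (edgeR adjusted p = 0.0117). Il2rb, the receptor chain shared by interleukins 2 and 15, was at 48.9 ± 65.7 and 0.0611 ± 0.15 CPM in the naive cells and at 505 ± 297 and 1210 ± 728 in MemCD8T and EffCD4T (edgeR adjusted p = 0.0255). Plac8 (edgeR adjusted p = 0.0185), Rad50 (0.043) and Runx3 (0.0649) were also near 0 in naive CD4+ T-cells. Ccnd2 (0.0228) and the lncRNA AW112010 (4.88e-05) were read in all 4 subtypes, with the highest mean in EffCD4T.

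For the genes named here with a more positive gap, EffCD4T held the lowest mean of the 4 subtypes. Rps19 was at 6240 ± 938 CPM in naive CD8+ and 6590 ± 633 in naive CD4+ T-cells, against 5540 ± 949 in MemCD8T and 3060 ± 253 in EffCD4T (edgeR adjusted p = 2.27e-04). Rplp0 (edgeR adjusted p = 0.0109) and Rpl35 (0.00903) were also lowest in EffCD4T, and of 82 ribosomal protein genes tested 10 (12.2%) passed with a more positive gap and 0 with a more negative one, against 0.704% and 0.269% of all genes. Ccr7 was at 1050 ± 487 CPM in naive CD8+ and 1790 ± 704 in naive CD4+ T-cells (edgeR adjusted p = 0.00274). Dapl1 was at 643 ± 380 and 389 ± 166 CPM (edgeR adjusted p = 1.78e-04) and Nsg2 at 126 ± 77.4 and 181 ± 124 (edgeR adjusted p = 2.27e-04). Itm2a, at 199 ± 177 CPM in MemCD8T and 0 in EffCD4T, was also among the 8 with the smallest p (edgeR adjusted p = 0.0109). The lineage genes Cd8b1 and Cd40lg did not pass, while Runx3 did, as given above. Cd8b1 was at 1650 ± 711 and 18.8 ± 45.7 CPM in naive CD8+ and CD4+ cells (edgeR adjusted p = 0.989), and Cd40lg at 0.0462 ± 0.122 and 150 ± 72.6 (edgeR adjusted p = 0.999). Cd4 was at 255 ± 160 CPM in naive CD4+ T-cells and 102 ± 103 in EffCD4T.

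**Figure D5:**
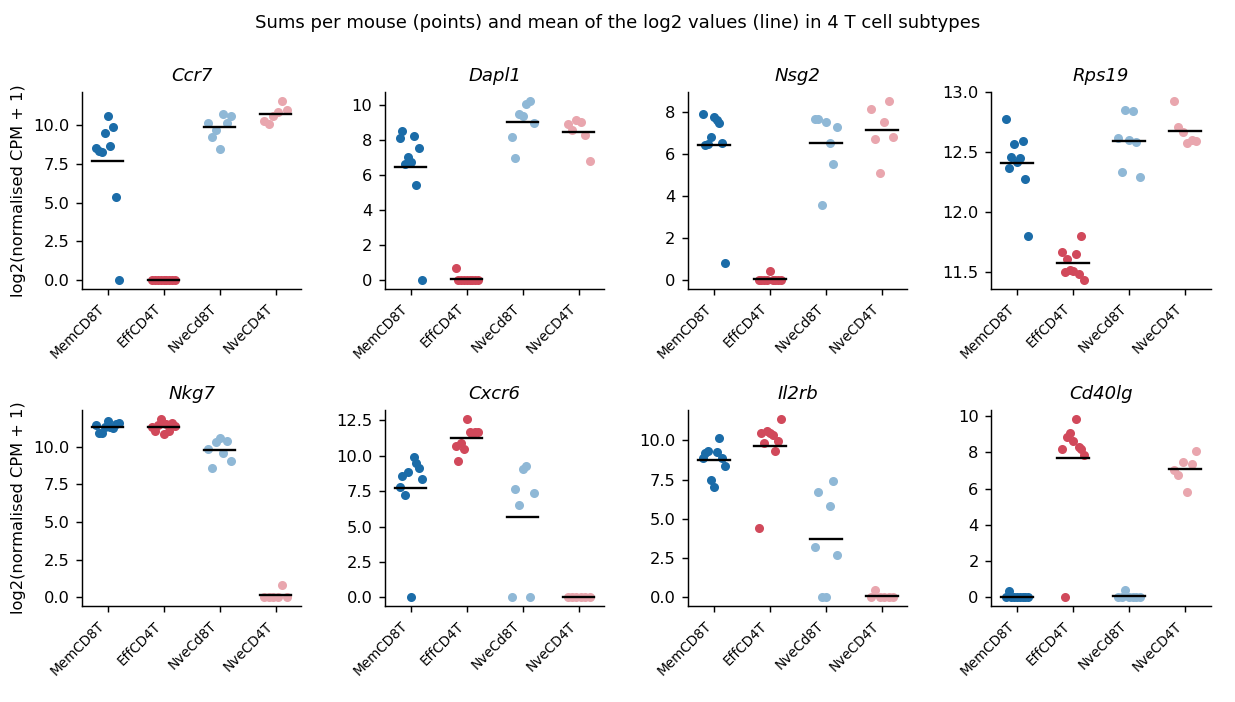
Levels of 8 genes in the sums of each mouse, as log2(normalised CPM + 1) on the vertical axes, in MemCD8T and EffCD4T (n = 9 mice each), naive CD8+ (NveCd8T, n = 7) and naive CD4+ T-cells (NveCD4T, n = 6). Lines are means of the log2 values. Ccr7 is at 0 in all 9 EffCD4T sums, and Cxcr6 is at 0 in all 6 naive CD4+ sums.

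Whether the gap differed at the oldest age was tested as an interaction, with 3 mice of 101 weeks and 6 younger mice. All 3 oldest mice were sequenced on lane 2, as was 1 younger mouse, while 4 younger mice were on lane 1 and 1 on both, so age and lane cannot be told apart. In edgeR 0 of 4665 genes (0%) passed, though 149 had an unadjusted p under 0.05, while DESeq2 called 301 (6.45%), 242 with a more positive gap at the oldest age and 59 with a more negative one. Id2, for instance, was lower in MemCD8T by 1.24 on the log2 scale in the oldest mice and by 2.71 in the younger mice (ratio of mean CPM + 1), a difference that did not pass. Without the oldest mice the count of genes past the threshold was 1 of 4665.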

How the data were processed

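Raw gene counts of single cells were used as the authors deposited them. Per the study's methods and the labels, reads were trimmed (Trim Galore 0.6.7), mapped with STAR to GRCm38 and counted without strand or molecular identifiers over Ensembl genes, of which all 38788 matched GENCODE vM21. Both GEO samples pool cells, so mouse, lane, age and subtype came from the read file names and the study's cell sheet, and the mouse was the replicate. The members and gene lists were chosen with earlier results of these data known.

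Counts were summed per mouse and subtype, with the 2 subtypes paired within each mouse, and tested with edgeR 4.0.16 (R 4.3.3; TMM, robust quasi-likelihood, mouse as a block, Benjamini-Hochberg adjusted p under 0.1) for genes with at least 1 count in at least 25% of the cells of either subtype. DESeq2 1.42.0 and limma 3.58.1 were alternatives. CPM are TMM-normalised. Named genes were the 12 of smallest p per direction without receptor segments and predicted genes (13 higher and 12 lower left out), the first 2 and up to 5 called per direction of each list, up to 8 per direction of the naive contrast, all markers, and receptor segments and further genes picked after their values were seen. On simulated data with 200 changed genes of 4665, 0% of those changed by a log2 of 1, 17% by 2 and 30% by 3 were recovered, and 3.03% of the calls were false. Nothing in the labels says whether libraries of a mouse were prepared apart, so p-values measure the spread between mice as sampled. Methylation and predicted ages were not used, and 1 gene is not reported here.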

Additional observations from a re-analysis of the deposited data

Results flagged for a closer look

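For 46 values the within-mouse difference of 9 mice was checked for an animal far from the others, of which chance flags about 1 in 20. Mouse 24, the animal of 10 weeks with 3 cells of each subtype, was apart in 5. Its red cell markers differed by 205400 CPM between MemCD8T and EffCD4T (the others from -32260 to 46640) and its B-cell markers by 186.1 CPM (-0.567 to 71.6). Its log2 ratio of MemCD8T to EffCD4T was 0.79 for Nsg2 (the others from 6.39 to 7.89), 0 for Dapl1 (5.4 to 8.45) and 0 for Fcgrt (4.59 to 8.17). In mouse 1 the effector CD4 markers differed by -6340 CPM (-1966 to 802.5) and the neutrophil markers by 0.602 CPM. In mouse 14 the regulatory T-cell markers differed by 968.2 CPM (-210.6 to 96.1), with Foxp3 at 0 in all sums, and the log2 ratio of Sh3bgrl3 was -3.32 (-1.8 to -0.58). In mouse 2 the platelet markers differed by -330.9 CPM and the log2 ratio of Cd40lg was 0.32 (-9.85 to -7.89). In mouse 23 the log2 ratio of Rps2 was 0.12 (0.78 to 1.24).

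The gap between MemCD8T and EffCD4T differed from the gap between naive CD8+ and CD4+ T-cells in 47 genes by the test of the difference itself. Outside the comparison, 2 of the 8 cells labelled MemCD4T held Trav11 or Trav11d counts, against 0 of 600 B-cells.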

How the results depend on the processing

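Of 4665 genes tested 105 passed in the main test. DESeq2 called 779 (481 higher, 298 lower), limma 265 and a filter at 50% of cells 223 of 2192. No filter left 35 of 25686, equal numbers of cells 53, a threshold of 0.05 63, and EffCD4T cells with at least 10 Trav11 counts 65 (43 higher, 22 lower; chosen after seeing the data). The count was 0 with at least 6 cells of each subtype (4 mice; 350 at an unadjusted p under 0.05), with cells of the lowest haemoglobin class (6 mice; 470), with genes detected as a covariate (283), in lane 1 (217) and in the oldest mice (343), 2 in lane 2 and 1 without the oldest mice. Leaving out 1 mouse gave 55 to 132. Without the mouse block it was 142 (95 higher, 47 lower), with DESeq2 size factors 99 (48 higher, 51 lower), with protein-coding genes alone 142 (117 higher, 25 lower), with 150000 counts per cell 113 and without cells holding counts of the other lineage 108. The cause of these changes was not tested, beyond the fewer mice, cells or genes of some fits. Without the Trbv19 cells of mouse 2 it was 90. Of the 43 named genes past the threshold, 22 passed without each mouse in turn, and none changed direction in 1268 repeats.

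The age interaction had 0 genes in edgeR, also without each mouse (0 to 0), and 301 in DESeq2. The naive contrast had 47 genes in the main test, 352 in DESeq2 and 9 in mice with all 4 subtypes. Genes detected per cell differed by 167 to 222 without 1 mouse, and by 182 in the lowest haemoglobin class (exact permutation p = 0.0938, 6 mice). The difference was 123 for genes with at least 5 counts (exact permutation p = 0.0156). With all counts and no draw it was 365 (exact permutation p = 0.00781). Total counts per cell differed by 104700 to 128600 without 1 mouse and by 128300 in that class (exact permutation p = 0.0625). Sums of few cells limit genes of low level, since most sums of EffCD4T held 3 to 7 cells.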
